A study of Macaca mulatta with 12 samples.

Results

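The nucleolar ribosome biogenesis genes described here are 54 genes of the rhesus macaque liver, picked by their names. A gene was taken where its symbol began with NOP, UTP, RRP or NOL and a digit, with POLR1, or with GNL2 or GNL3, or where it was NIFK, NCL, FBL, DKC1, BOP1, PES1, IMP3, IMP4, EBNA1BP2 or NOLC1. The rule uses symbols alone, but it was drawn up with earlier results of these data known. Of 57 such symbols in the reference table, 54 had a row among the 23993 genes measured, and EBNA1BP2, NOL12 and RRP36 are not analysed here. All 54 passed the filter on low counts, which kept 18373 genes.

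As background, ribosomes are built in the nucleolus, where RNA polymerase I copies the ribosomal DNA into a long precursor RNA. Small nucleolar ribonucleoproteins (snoRNPs, each a guide RNA with a protein core) modify the precursor, the small-subunit processome folds and cleaves its first part, and assembly factors then release the precursor of the large subunit. The liver makes large amounts of secreted protein and depends on ribosomes for it, and ribosome building in hepatocytes is known to follow growth signals and regrowth after tissue loss. By role, the 54 genes fell into 8 subunits of RNA polymerase I, 21 factors of the small subunit, 5 snoRNP core proteins, 15 factors of the large subunit, 2 organisers of the nucleolus and 3 genes (NOL3, NOL4 and NOL4L) that share the name NOL and have no role in ribosome building known with certainty.

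RNA came from liver biopsies of 6 male rhesus macaques aged about 4.6 years, each sampled at the end of an ethanol induction of 90 days and, as its own baseline, before it. Every animal drank the same amounts in the induction, namely 0.5 g ethanol per kg daily for 30 days, 1 g for 30 days and 1.5 g for 30 days. In the 12 months of open access that followed, 3 animals drank 4 g per kg daily and were classed as very heavy drinkers (VHD), and 3 drank 1.5 g per kg daily and were classed as light drinkers (LD), so the class names describe drinking after both biopsies. The 4 groups were VHD post-induction, VHD baseline, LD post-induction and LD baseline, with 3 libraries each, each made from 500 ng of RNA (RIN over 8.5) and read to 76 bases. No group of animals without ethanol was among the libraries, so time between the biopsies and ethanol cannot be told apart.

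The libraries held 5970033 to 25060718 counts and between 20704 and 23348 detected genes. On the first 2 principal components of all genes (31.4% and 20.6% of the variance), VHD post-induction 2 and VHD baseline 3 stood apart from the other libraries on the second, and results that rest on them are also given without both. On the first, LD post-induction 2 and 3, VHD post-induction 3 and VHD baseline 2 were highest, at 79.3, 79.0, 64.9 and 45.2. VHD post-induction 1 had 7.22. The other libraries lay below 0, from -67.8 for LD post-induction 1 to -5.61 for VHD baseline 3. High values were thus mostly post-induction, and the part of this component in the results below was not tested. Hepatocyte markers summed to 134862 to 236719 CPM post-induction and 117662 to 228441 CPM at baseline (6 of 7 markers found). CPM is the count scaled by the library total, with that total adjusted by edgeR's TMM factor. The summed markers of cholangiocytes, macrophages, T and NK cells, endothelial cells, stellate cells and dividing cells also overlapped between the times with the classes pooled. Within a class, 2 sums did not overlap between the times: cholangiocyte markers (3 of 4 found) in VHD livers and T and NK cell markers (3 of 5 found) in LD livers, both higher post-induction. Markers of dividing cells, with 6 of 6 found and none at 0 in every library, summed to 20.6 to 37.2 CPM post-induction and 29.5 to 44.2 CPM at baseline, and their part in the results below was not tested.

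The first comparison asked what the livers of all 6 animals shared, as the mean of the VHD and LD responses, each post-induction over baseline. Most nucleolar ribosome biogenesis genes were at lower levels post-induction: 48 of the 54 had a log2 fold change below 0, against 42.6% of all 18373 genes tested. Their median log2 fold change was -0.52, beside 0.07 over all genes, and 10 of them were more than 2-fold lower, against 1.91% of all genes. Past an adjusted p of 0.05 in edgeR's quasi-likelihood test (Benjamini-Hochberg over all genes), 2 of the 54 fell, NIFK and GNL3, and none rose; 0.25% of all genes fell by this rule. At an unadjusted p under 0.05, 22 of the 54 were lower and 0 higher, against 4.16% of all genes lower.

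The summed level of the 54 genes was 541 CPM at the lowest, 573 CPM at the median and 747 CPM at the highest of the 6 post-induction libraries. At baseline it was 815, 940 and 1155 CPM in the same order, so the groups did not overlap. In such bulk tissue, fewer cells of a type and less RNA per cell cannot be told apart. Gene by gene, 15 of the 54 were lower post-induction in 6 of 6 animals, against 3.74% of all genes, and none was higher in all 6. The values of the 6 post-induction libraries lay below all 6 baseline values for GNL3, NCL, NIFK, NOLC1, UTP15 and UTP25, or 6 of the 54, against 0.849% of all genes. Without VHD post-induction 2 and VHD baseline 3, 13 of the 54 did not overlap, against 2.08% of all genes, 47 had a log2 fold change below 0 and the same 2 passed the threshold.

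**Figure D1:**
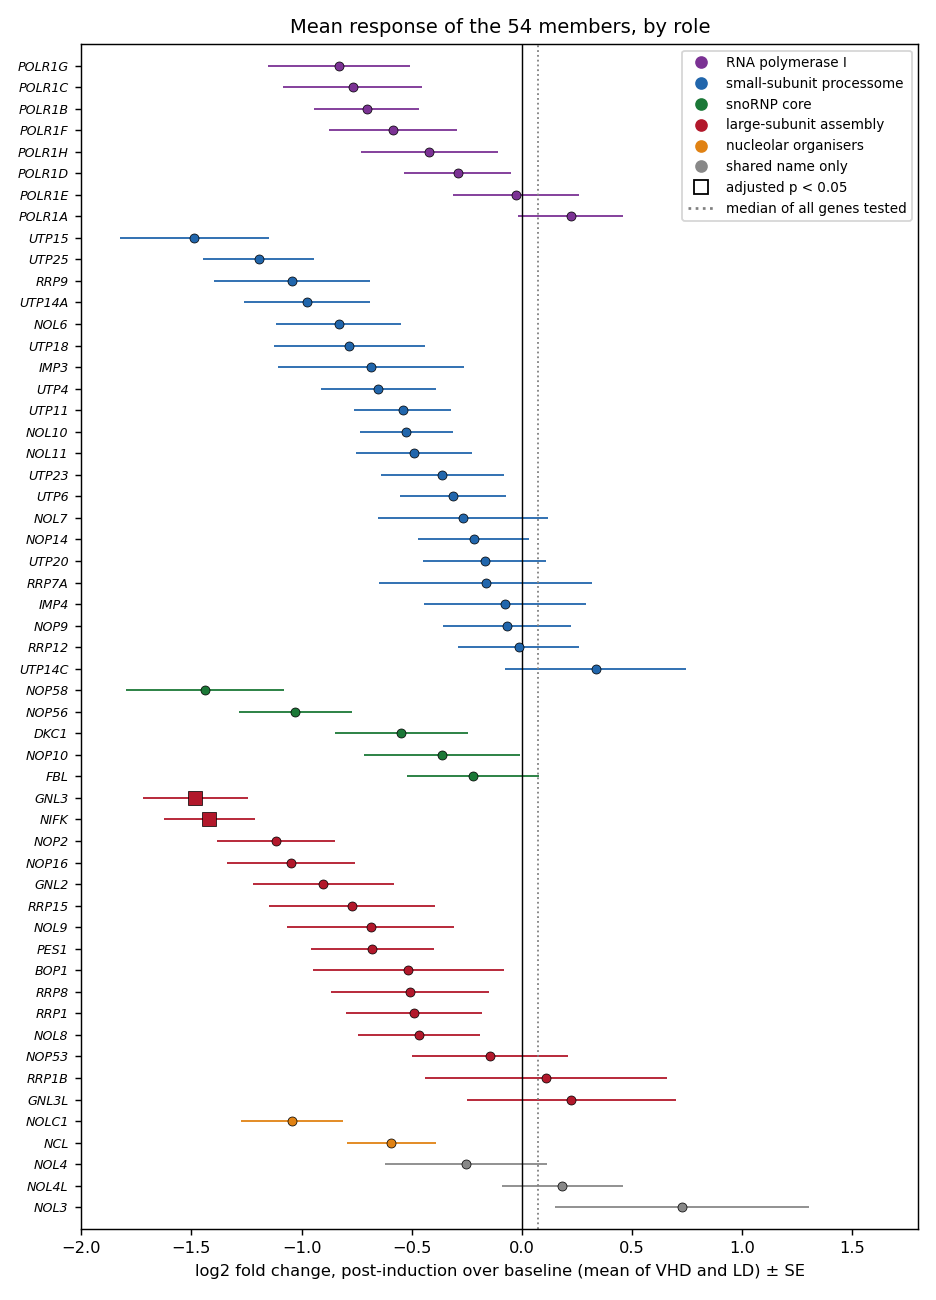
Log2 fold change (x axis, post-induction over baseline, mean of the VHD and LD responses) of each of the 54 genes, grouped and coloured by role, with bars of 1 SE and squares for an adjusted p under 0.05. Of the 54 points, 48 lie left of 0, and the dotted line at 0.07 is the median of all genes tested.

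NIFK codes for a nucleolar protein that binds the proliferation antigen Ki-67 and takes part in the processing of the precursor of the large subunit. It spans 9355665 to 9365644 on the plus strand of chromosome 12 (build Mmul_8.0.1). In animals 1, 2 and 3, an order kept throughout, it had 8.83, 8.65 and 9.93 CPM in VHD livers post-induction, against 26.1, 21.1 and 18.5 CPM at baseline. In LD animals it had 12.8, 8.34 and 8.63 CPM post-induction, against 27.9, 26.5 and 34.7 CPM at baseline. All 6 post-induction values were below all 6 baseline values. The mean response was a log2 fold change of -1.42 ± 0.21 (SE, adjusted p = 0.0246), with means of 9.14 ± 0.690 CPM in VHD and 9.91 ± 2.48 CPM in LD livers post-induction, against 21.9 ± 3.86 and 29.7 ± 4.40 CPM at baseline (SD, n = 3 each). Its main transcript, with 95.8% of the gene's counts, had a log2 fold change of -1.46.

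GNL3 codes for nucleostemin, a GTP-binding protein of the nucleolus that takes part in large-subunit processing. It lies on the minus strand of chromosome 2, from 89496277 to 89505347. Its level was 20.8, 26.6 and 19.9 CPM in VHD livers post-induction, against 66.9, 63.8 and 40.6 CPM at baseline. In LD livers it was 30.8, 20.2 and 19.8 CPM post-induction, against 52.3, 68.6 and 96.8 CPM at baseline. Again every post-induction value was below every baseline value, and LD baseline 3 had the highest of the 12. The mean response was -1.48 ± 0.24 on the log2 scale (adjusted p = 0.0268).

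Both calls depended on the model and on single libraries. With a term for the animal, as the numbered titles allow, the log2 fold changes were -1.42 for NIFK and -1.46 for GNL3, with adjusted p of 0.0893 and 0.0989, and 0 of the 54 passed the threshold. With DESeq2, 9 of them did: GNL3, NIFK, NOLC1, NOP16, NOP2, NOP56, NOP58, UTP15 and UTP25. In edgeR's test NIFK had an adjusted p of 0.0936 and 0.0636 when LD post-induction 2 or 3 was left out, 0.0772 without LD baseline 3, 0.0649 without VHD post-induction 1, 0.0573 without VHD post-induction 3 and 0.0505 without VHD baseline 1. Without the same libraries the adjusted p of GNL3 was 0.104, 0.075, 0.0781, 0.0724, 0.0854 and 0.0628, and it was 0.0639 without LD baseline 2 and 0.0511 without VHD baseline 2. The log2 fold changes stayed between -1.54 and -1.35 for NIFK and between -1.65 and -1.35 for GNL3 over 23 alternatives. NIFK overlaps TSN, and GNL3 overlaps GLT8D1, each on the other strand; the labels do not state whether counting used strand, so reads of the overlaps are uncertain.

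**Figure D2:**
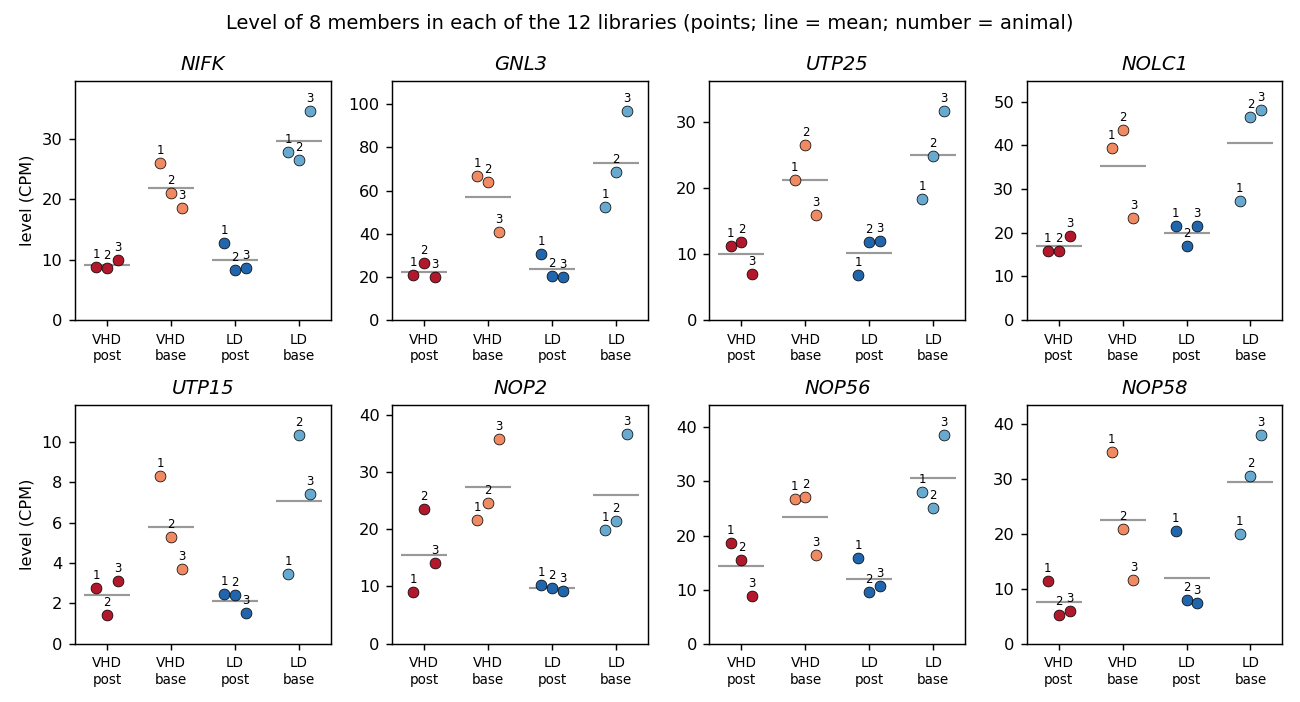
Level in CPM (y axes, linear from 0) of 8 of the 54 genes in each library, with the groups on the x axes, the animal's number at each point and the group mean as a line. NIFK, GNL3, UTP25, NOLC1 and UTP15 show no overlap between post-induction and baseline points, while NOP2, NOP56 and NOP58 overlap.

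RNA polymerase I is a machine of its own, built of catalytic subunits and of smaller ones that it partly shares with RNA polymerase III. Of its 8 subunits measured, none passed the threshold, 7 had a log2 fold change below 0 and 3 were lower at an unadjusted p under 0.05, with a median of -0.50. The largest subunits, which together form the catalytic centre, differed in sign. POLR1B, the second-largest, had 27.3, 26.6 and 20.7 CPM in VHD livers post-induction, against 49.7, 45.9 and 29.6 CPM at baseline. In LD livers POLR1B had 28.1, 24.2 and 35.8 CPM post-induction, against 32.9, 39.2 and 67 CPM at baseline. Its post-induction level was lower in each animal, with a log2 fold change of -0.70 ± 0.24 (adjusted p = 0.388).

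POLR1A, the largest subunit, had 4.28, 3.94 and 5.28 CPM in VHD livers post-induction, against 3.0, 4.19 and 4.48 CPM at baseline. In LD livers it was 3.29, 3.49 and 4.7 CPM post-induction, against 3.63, 2.66 and 3.45 CPM at baseline. The groups overlapped, and 4 of 6 animals were higher post-induction, with a log2 fold change of 0.22 ± 0.24 (adjusted p = 0.886). POLR1C, an assembly subunit shared with RNA polymerase III, had 5.8, 11.9 and 5.19 CPM in VHD livers post-induction, against 15.2, 14 and 6.07 CPM at baseline. In LD livers POLR1C had 9.22, 8.47 and 4.31 CPM post-induction, against 12.1, 13 and 16.7 CPM at baseline. Its log2 fold change was -0.77 ± 0.31 (adjusted p = 0.546), and LD livers, but not VHD livers, had no overlap between the times. The other 5 subunits ranged from -0.83 for POLR1G to -0.03 for POLR1E. POLR1G overlaps ERCC1 on the other strand, and POLR1D overlaps an unnamed gene on its own strand.

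The small-subunit processome gathers on the first part of the precursor RNA, with the U3 snoRNP at its centre. Of its 21 measured factors, 20 had a log2 fold change below 0, 9 were lower at an unadjusted p under 0.05 and none passed the adjusted threshold; the median was -0.49. UTP15 belongs to the group of processome proteins that in yeast also aids transcription of ribosomal DNA. UTP15, on the plus strand of chromosome 6 from 70200200 to 70214901, had 2.76, 1.42 and 3.11 CPM in VHD livers post-induction, against 8.28, 5.29 and 3.7 CPM at baseline. In LD livers UTP15 had 2.44, 2.39 and 1.53 CPM post-induction, against 3.46, 10.3 and 7.4 CPM at baseline. The groups did not overlap, and the log2 fold change was -1.49 ± 0.34 (adjusted p = 0.116).

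UTP25, a processome factor that resembles RNA helicases, lies on the minus strand of chromosome 1 from 156656454 to 156684810. It had 11.2, 11.8 and 6.95 CPM in VHD livers post-induction, against 21.2, 26.5 and 15.9 CPM at baseline. In LD livers UTP25 stood at 6.78, 11.8 and 12 CPM post-induction, against 18.3, 24.8 and 31.7 CPM at baseline. The 6 animals were close to each other, with log2 changes between -1.42 in LD1 and -0.92 in VHD1. Its log2 fold change was -1.19 ± 0.25 (adjusted p = 0.0835).

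UTP4, a partner of UTP15 that is known in human liver disease as cirhin, had 16.6, 11 and 18.3 CPM in VHD livers post-induction, against 28.6, 39.5 and 14.6 CPM at baseline. In LD livers UTP4 had 14.9, 24.1 and 20 CPM post-induction, against 23, 28.5 and 29.3 CPM at baseline. The level was lower post-induction in 5 of 6 animals, with VHD3 the exception, and the log2 fold change was -0.65 ± 0.26 (adjusted p = 0.534). Its 4 transcripts differed, since the most abundant one, with 58.7% of the counts, had a log2 fold change of 0.08 ± 0.31, and the one with 18.6% had -2.63 ± 0.72 (adjusted p = 0.477 over the transcripts tested).

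NOL6, a scaffold protein of the processome, had 8.42, 8.21 and 15.6 CPM in VHD livers post-induction, against 14.1, 27.8 and 17.6 CPM at baseline. In LD livers NOL6 had 7.31, 11.7 and 10.3 CPM post-induction, against 10.9, 14.7 and 24.6 CPM at baseline. The log2 fold change was -0.83 ± 0.29 (adjusted p = 0.402), and VHD post-induction 3 and LD baseline 1 were among the libraries in which the times overlapped. IMP3, which binds the U3 RNA, had 9.11, 25.2 and 5.46 CPM in VHD livers post-induction, against 12.6, 10.6 and 26.1 CPM at baseline. LD livers had 20.9, 8.15 and 4.89 CPM post-induction, against 25.4, 26.1 and 19.6 CPM at baseline. IMP3 overlapped widely, with VHD post-induction 2 among its highest libraries, and its log2 fold change was -0.69 ± 0.42 (adjusted p = 0.743).

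UTP20, a very large scaffold protein, had 10.5, 3.56 and 7.04 CPM in VHD livers post-induction, against 10.8, 11.2 and 6.26 CPM at baseline. In LD livers UTP20 had 7.31, 10.3 and 8.05 CPM post-induction, against 6.75, 8.79 and 8.41 CPM at baseline. RRP12, known in yeast for the export of both subunits, had 9.38, 12.9 and 5.68 CPM in VHD livers post-induction, against 9.73, 16.6 and 8.18 CPM at baseline. Neither gene separated the times. LD livers had 8.27, 13.6 and 12.2 CPM post-induction, against 9.17, 7.46 and 11.5 CPM at baseline of RRP12. The log2 fold changes were -0.17 ± 0.28 for UTP20 and -0.01 ± 0.28 for RRP12, whose sign turned in 6 of 23 alternatives. The other 14 factors of the small subunit ranged from -1.04 for RRP9, a protein of the U3 snoRNP, to 0.34 for UTP14C. UTP14C is a near copy of UTP14A (-0.97), so the split of reads between them is uncertain.

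The snoRNP core proteins sit on the guide RNAs, with NOP56, NOP58 and the methyltransferase FBL on box C/D RNAs and the pseudouridine synthase DKC1 and NOP10 on box H/ACA RNAs. All 5 had log2 fold changes below 0, none passed the adjusted threshold, 2 were lower at an unadjusted p under 0.05, and their median was -0.55. NOP58 had 11.5, 5.31 and 5.96 CPM in VHD livers post-induction, against 34.8, 20.9 and 11.6 CPM at baseline. In LD livers NOP58 had 20.5, 8.02 and 7.38 CPM post-induction, against 19.9, 30.4 and 37.9 CPM at baseline. It was lower in 5 of 6 animals, with LD1 near 0 (log2 change 0.04), and the log2 fold change was -1.44 ± 0.36 (adjusted p = 0.167). Its 2 main transcripts, with 81.5% and 17.9% of the counts, had log2 fold changes of -1.42 and -1.46.

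NOP56 had 18.6, 15.5 and 8.84 CPM in VHD livers post-induction, against 26.7, 27.1 and 16.4 CPM at baseline. LD livers had 15.8, 9.63 and 10.6 CPM post-induction, against 28, 25 and 38.7 CPM at baseline of NOP56. The LD groups did not overlap, while VHD post-induction 1 lay above VHD baseline 3. The log2 fold change was -1.03 ± 0.26 (adjusted p = 0.162), and NOP56 overlaps IDH3B on the other strand.

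FBL, which adds the methyl groups, had 19, 30 and 15.4 CPM in VHD livers post-induction, against 32, 19.9 and 22.7 CPM at baseline. In LD livers FBL had 36.3, 13.3 and 11.9 CPM post-induction, against 23.4, 23.3 and 25.9 CPM at baseline. Its groups overlapped, and the log2 fold change was -0.22 ± 0.30 (adjusted p = 0.923). DKC1 had 5.24, 4.93 and 5.5 CPM in VHD livers post-induction, against 9.01, 8.43 and 4.96 CPM at baseline. In LD livers DKC1 had 5.93, 3.62 and 5.65 CPM post-induction, against 3.29, 11.5 and 7.76 CPM at baseline. LD baseline 1 held the lowest value of the 12, and the log2 fold change of DKC1 was -0.55 ± 0.30 (adjusted p = 0.709). NOP10 had 12.6, 3.01 and 8.12 CPM in VHD livers post-induction, against 14, 14.1 and 4.18 CPM at baseline. In LD livers NOP10 had 11.7, 12.8 and 10.1 CPM post-induction, against 14.7, 12.7 and 14.3 CPM at baseline. Its lowest libraries were VHD post-induction 2 and VHD baseline 3, and the log2 fold change was -0.36 ± 0.35 (adjusted p = 0.865).

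The 15 factors of the large subunit held both genes past the threshold. Of the 15, 13 had a log2 fold change below 0, 6 were lower at an unadjusted p under 0.05 and the median was -0.68. NOP2, which methylates a cytosine of the large ribosomal RNA, had 9.11, 23.5 and 14 CPM in VHD livers post-induction, against 21.6, 24.5 and 35.8 CPM at baseline. In LD livers NOP2 had 10.2, 9.7 and 9.2 CPM post-induction, against 19.9, 21.5 and 36.6 CPM at baseline. The LD groups did not overlap, and the VHD groups did through VHD post-induction 2. The log2 fold change was -1.12 ± 0.27 (adjusted p = 0.15). Its main transcript (87.7% of the counts) had -1.28, and a second one (11.6%) had 0.10; NOP2 overlaps CHD4 on the same strand, so its counts are uncertain.

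BOP1 and PES1 form, with a further protein, a complex needed for the large ribosomal RNA to be cut out. BOP1 had 6.35, 32 and 8.71 CPM in VHD livers post-induction, against 16, 14.7 and 23.9 CPM at baseline. In LD livers BOP1 had 19.9, 5.63 and 4.98 CPM post-induction, against 14.9, 16.8 and 22.4 CPM at baseline. VHD post-induction 2 was the highest of the 12 libraries and LD post-induction 3 the lowest, and the log2 fold change was -0.51 ± 0.43 (adjusted p = 0.833). PES1 had 11.2, 21 and 9.79 CPM in VHD livers post-induction, against 17.9, 12.7 and 29.5 CPM at baseline. In LD livers PES1 had 13.2, 8.79 and 12.4 CPM post-induction, against 18.2, 17.2 and 26.2 CPM at baseline. For PES1 the LD groups did not overlap, and the log2 fold change was -0.68 ± 0.28 (adjusted p = 0.546).

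NOP16, a factor of the early large-subunit precursor, had 7.04, 4.38 and 4.29 CPM in VHD livers post-induction, against 14.1, 10.3 and 5.33 CPM at baseline. In LD livers NOP16 had 9.75, 5.63 and 6.33 CPM post-induction, against 11.1, 18.8 and 18.8 CPM at baseline. The log2 fold change of NOP16 was -1.05, and its 2 transcripts, with 78.3% and 21.7% of the counts, had -1.02 and -1.2. NOP16 overlaps ARL10 on the other strand. GNL3L, a relative of GNL3, was at low levels, with 1.52, 1.2 and 1.13 CPM in VHD livers post-induction, against 1.04, 3.2 and 0.518 CPM at baseline. In LD livers GNL3L had 1.01, 2.2 and 0.671 CPM post-induction, against 0.519, 0.633 and 1.08 CPM at baseline. RRP1B, whose level was high in VHD post-induction 2 and VHD baseline 3, had 2.07, 26.7 and 4.29 CPM in VHD livers post-induction, against 4.04, 2.89 and 14.7 CPM at baseline. LD livers had 5.56, 4.01 and 3.16 CPM post-induction, against 6.06, 5.44 and 5.32 CPM at baseline of RRP1B, with no such library. GNL3L and RRP1B were the 2 large-subunit factors with a log2 fold change above 0, at 0.23 and 0.11. RRP1B was nonetheless lower post-induction in 5 of 6 animals, and only VHD2 was higher, with a log2 change of 3.15.

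The organisers of the nucleolus are NCL (nucleolin, which binds ribosomal DNA chromatin and precursor RNA) and NOLC1 (a chaperone of snoRNPs on their way to the nucleolus). NOLC1, on the plus strand of chromosome 9 from 97858558 to 97871597, had 15.9, 15.7 and 19.2 CPM in VHD livers post-induction, against 39.3, 43.5 and 23.3 CPM at baseline. In LD livers NOLC1 had 21.6, 16.9 and 21.5 CPM post-induction, against 27.2, 46.6 and 48.1 CPM at baseline. The groups did not overlap, and the log2 fold change was -1.04 ± 0.23 (adjusted p = 0.101). NCL, on the minus strand of chromosome 12 from 113945889 to 113955956, had 86.1, 89.1 and 98.6 CPM in VHD livers post-induction, against 108, 123 and 147 CPM at baseline. In LD livers NCL had 73.5, 83.9 and 102 CPM post-induction, against 113, 139 and 176 CPM at baseline. All 12 values of NCL also separated by time, with a log2 fold change of -0.59 ± 0.20 (adjusted p = 0.402).

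Of the 3 genes that share only the name, 2 had a log2 fold change above 0 and 1 below, all with wide SEs. NOL3, an inhibitor of cell death, had a log2 fold change of 0.73 ± 0.58, NOL4L had 0.18 ± 0.27 and NOL4 had -0.26 ± 0.37, each with an adjusted p over 0.05. NOL3 was at low levels and ranged from 0.0958 CPM in LD post-induction 3 to 3.01 CPM in VHD post-induction 2. Without these 3 genes, 47 of 51 had a log2 fold change below 0, with a median of -0.54. By level, 28 of the 54 genes were over 10 CPM on edgeR's average log2 CPM. All 28 had a log2 fold change below 0, against 42.6% of all genes tested at any level. The value closest to 0 was -0.01 for RRP12, whose sign turned in 6 of 23 alternatives.

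The second comparison took the response of VHD animals alone. Of the 54 genes, 46 had a log2 fold change below 0, against 47.6% of all genes, and the median was -0.46, beside 0.03. None passed the adjusted threshold in edgeR's test, nor did any other gene lower (0% of all genes), while 11 were lower at an unadjusted p under 0.05, against 2.22% of all genes. DESeq2 called 2 of the 54, GNL3 and NIFK, among 64 of all 18373 genes in either direction, and limma voom, with a random effect for the animal, called 0. Groups did not overlap, lower post-induction, for 12 of the 54, against 3.89% of all genes. The smallest p belonged to NIFK, with a log2 fold change of -1.26 ± 0.29 (adjusted p = 0.487), and to GNL3, with -1.34 ± 0.33 (adjusted p = 0.57). NOLC1 had -1.06 ± 0.33, NOP58 -1.58 ± 0.51 and UTP25 -1.09 ± 0.36, all on the log2 scale. Without VHD post-induction 2 and VHD baseline 3 the median of the 54 was -0.64. The cholangiocyte markers of VHD livers summed to 31.8 to 56.9 CPM post-induction, against 26.9 to 31.4 CPM at baseline, and their part in these values was not tested.

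In LD animals, the third comparison, 47 of the 54 had a log2 fold change below 0, against 43.6% of all genes, with a median of -0.54, beside 0.08. In edgeR's test 0 passed the adjusted threshold, as for all genes lower (0%), and 14 were lower at an unadjusted p under 0.05, against 2.37% of all genes. DESeq2 again called GNL3 and NIFK, among 54 of all 18373 genes in either direction, and limma voom called 0. For 17 of the 54 the LD groups did not overlap, lower post-induction, against 6.17% of all genes. NIFK had a log2 fold change of -1.58 ± 0.29 and GNL3 of -1.62 ± 0.34 (adjusted p = 0.482 for each). NOP2 had -1.42 ± 0.38, NOP56 -1.34 ± 0.36 and UTP25 -1.30 ± 0.36 on the log2 scale. The T and NK cell markers of LD livers summed to 3.44 to 4.79 CPM post-induction, against 1.96 to 2.94 CPM at baseline, and their part in these values was not tested.

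**Figure D3:**
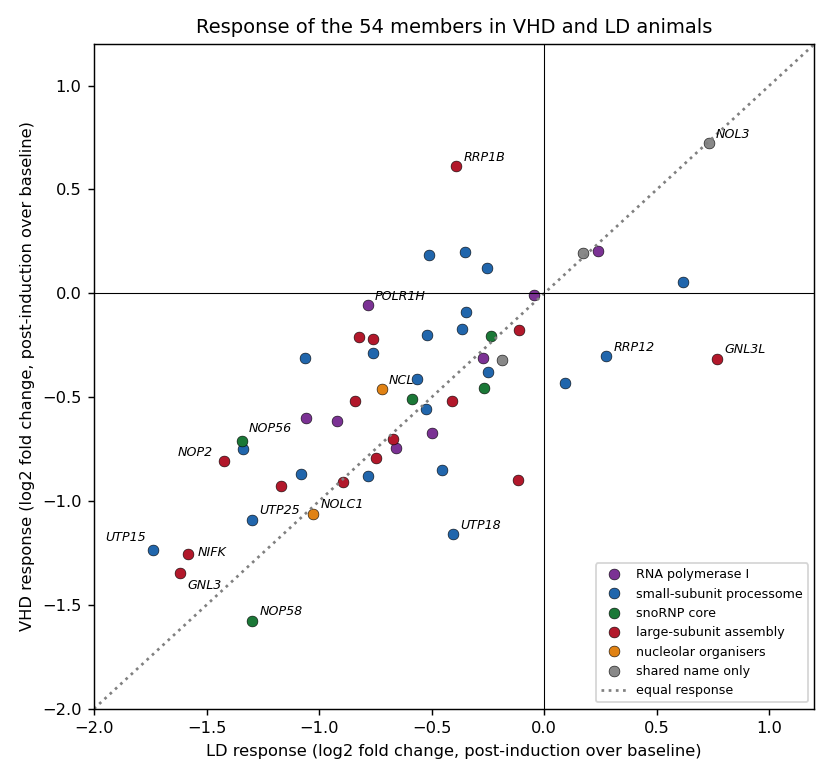
Log2 fold change in VHD animals (y axis) against that in LD animals (x axis), each post-induction over baseline, for the 54 genes coloured by role; the dotted line marks equal responses. Of the points, 43 lie in the lower left field, and NIFK, GNL3, UTP15, UTP25 and NOP58 lie farthest down and left.

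The VHD and LD responses share no library, and 43 of the 54 genes were below 0 in both, or 79.6%, against 26.5% of all genes. Another 4 were above 0 in both, 3 were below 0 in VHD animals alone and 4 in LD animals alone. Across the 54 genes, which are not independent of each other, the log2 fold changes of VHD and LD animals had a Pearson r of 0.69, beside 0.308 across all 18373 genes; this is a description with no test.

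The animals of each class differed among themselves. The median log2 change of the 54 genes was -0.51 in VHD1, -0.49 in VHD2 and -0.42 in VHD3, and it was -0.14 in LD1, -0.87 in LD2 and -0.94 in LD3. Medians of all genes lay between -0.10 and 0.08. Every value per animal rests on the animal numbers in the titles. Those of VHD2 and VHD3 use VHD post-induction 2 and VHD baseline 3, the libraries that stood apart, and deviations from the group means correlated at -0.354 over all genes and -0.562 over the 54 between the libraries of VHD2, so whether these numbers pair the right libraries is not certain. In VHD animals 46, 37 and 37 of the 54 genes were lower post-induction, and in LD animals 35, 44 and 50. LD1, with the smallest median, also had the baseline library with the fewest counts (5970033) and the lowest summed baseline level (815 CPM), and the part of depth was not tested. Its summed post-induction level was 736 CPM, against 544 and 541 CPM in LD2 and LD3. On the first principal component LD post-induction 1 was the lowest of the 12 libraries (-67.8). LD post-induction 2 and 3 were the highest (79.3 and 79.0), and the part of this was not tested either.

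**Figure D4:**
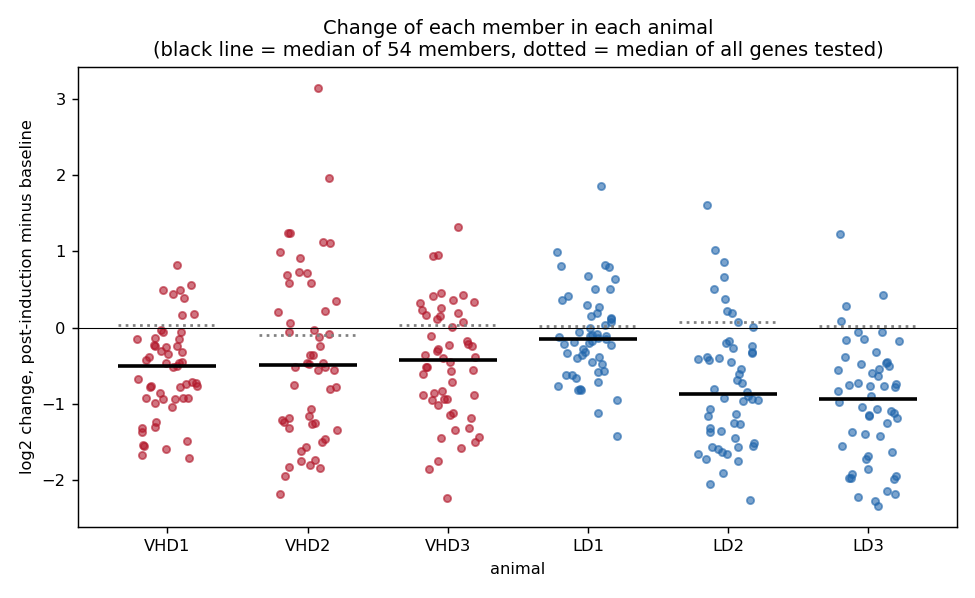
Log2 change from baseline to post-induction (y axis) of each of the 54 genes in each animal (x axis), with a black line at their median and a dotted line at the median of all genes tested. The black lines run from -0.94 in LD3 to -0.14 in LD1 and lie below the dotted line in 6 of 6 animals.

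The fourth comparison asked whether the VHD response differed from the LD response, as VHD minus LD. In edgeR's test 0 of the 54 passed the adjusted threshold and 0 had an unadjusted p under 0.05, against 0% and 1.3% of all genes; DESeq2 and limma voom also called 0. The median difference was 0.06 over the 54 genes and -0.05 over all genes. The genes with the smallest p were NOP56, at 0.63 ± 0.51 on the log2 scale, POLR1H, at 0.73 ± 0.62, NOP2, at 0.61 ± 0.53, NOL10, at 0.47 ± 0.42, and GNL3L, at -1.08 ± 0.95. The sign of GNL3L rested on VHD baseline 2, without which its difference was 0.0059. The SEs of these 5 differences were 0.42 to 0.95, so differences of that size were not detectable with 3 animals per class.

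POLR1H, a small subunit of RNA polymerase I that takes part in cutting the RNA when the enzyme stalls, had 5.52, 6.35 and 4.2 CPM in VHD livers post-induction, against 6.52, 6.96 and 3.3 CPM at baseline. In LD livers POLR1H had 9.59, 5.56 and 3.93 CPM post-induction, against 14.4, 6.33 and 12.5 CPM at baseline. LD baseline libraries 1 and 3 held its highest values. NOL10, a factor of the small subunit, had 11.7, 9.8 and 11.6 CPM in VHD livers post-induction, against 14.5, 14.5 and 11.6 CPM at baseline. In LD livers NOL10 had 10.7, 8.15 and 11.3 CPM post-induction, against 13.7, 14.8 and 22.3 CPM at baseline. The LD groups of NOL10 did not overlap, and VHD baseline 3 lay among the VHD post-induction values.

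Between the classes at baseline, before any ethanol of the induction, VHD minus LD passed the adjusted threshold in edgeR's test for 0 of the 54 genes, against 0.00544% of all genes. At an unadjusted p under 0.05 there was 1 of the 54, POLR1H, against 1.86% of all genes; DESeq2 and limma voom called 0. POLR1H had a log2 fold change of -0.98 ± 0.44 (adjusted p = 1), UTP11 of -0.62 ± 0.31 and NOP16 of -0.72 ± 0.41. Over 23 alternatives POLR1H ran from -1.54 to -0.70, UTP11 from -0.90 to -0.07 and NOP16 from -1.06 to -0.42. VHD libraries lay below all LD libraries for NIFK, or 1 of the 54, against 3.08% of all genes, and above them for RRP8, or 1 of the 54, against 4.13%. The median of the 54 was -0.06 and that of all genes 0.07.

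After the induction, VHD minus LD passed the threshold for 0 of the 54 genes in edgeR's test, with 0 at an unadjusted p under 0.05, against 0% and 2.44% of all genes, and DESeq2 and limma voom called 0. UTP11, a factor of the small subunit, had the smallest p, at -0.66 ± 0.31 on the log2 scale (adjusted p = 0.999). It had 7.59, 12.3 and 11.2 CPM in VHD livers and 14.9, 15.8 and 18.6 CPM in LD livers post-induction. At baseline it had 14.6, 17 and 14.4 CPM in VHD livers and 15.7, 30.6 and 24.4 CPM in LD livers. VHD libraries lay below LD libraries post-induction for UTP11 and UTP18, or 2 of the 54, against 2.16% of all genes, and above them for 0 of the 54, against 2.67%. NOP2 had 0.68 ± 0.38 and RRP1B 1.38 ± 0.79; without VHD post-induction 2 the value of RRP1B was -0.39.

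Other genes of ribosome building, outside the 54, were taken from 7 lists of 152 names, of which 129 had a row and 128 were tested. In the mean response, 113 of the 128 had a log2 fold change below 0, against 42.6% of all genes, with a median of -0.37, beside 0.07. At an unadjusted p under 0.05, 35 were lower, against 4.16% of all genes, and 0 higher. The 1 gene of the 128 that passed the adjusted threshold, against 0.25% of all genes lower, was RPF2, which brings the 5S ribonucleoprotein to the large-subunit precursor. RPF2 had 2.48, 1.75 and 2.12 CPM in VHD livers post-induction, against 6.73, 6.89 and 2.96 CPM at baseline. In LD livers RPF2 had 1.64, 2.78 and 1.44 CPM post-induction, against 6.75, 8.86 and 7.69 CPM at baseline. The log2 fold change was -1.68 ± 0.29 (SE, adjusted p = 0.0336), and it was lower in 6 of 6 animals. This call also depended on the fit. Without LD post-induction 2, without VHD post-induction 1 and with transcripts in place of genes, 0 of all genes passed the threshold.

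By list, the 41 tested factors of the large subunit had 38 below 0 and a median of -0.48, and the 37 of the small subunit had 31 below 0 and a median of -0.48. The exosome, which trims the precursor RNA, had 13 of 15 below 0 (median -0.48), the snoRNP list 13 of 14 (-0.25) and other nucleolar proteins 9 of 10 (-0.24). The transcription factors of RNA polymerase I had 6 of 8 below 0 (-0.18). The list named for the 5S ribonucleoprotein, which also holds SLX9, had 3 of 4 (-0.06). The lists overlap, so their counts add up to more than the 128 genes tested. BRIX1, a partner of RPF2, had a log2 fold change of -1.17 ± 0.23 (adjusted p = 0.0666). RRN3, the factor that readies RNA polymerase I to start, had -0.90 ± 0.20 (adjusted p = 0.114), and MYBBP1A, a nucleolar partner of transcription factors, had -0.38 ± 0.24 (adjusted p = 0.753). LTV1, which aids export of the small subunit, had -0.97 ± 0.23, and the processome protein WDR43 had -1.26 ± 0.30. NUFIP1, an assembly factor of box C/D snoRNPs, had -1.56 ± 0.38, and GAR1, a core protein of box H/ACA snoRNPs, had -1.10 ± 0.38. The exosome subunits EXOSC3 and DIS3 had -0.78 ± 0.23 and -0.71 ± 0.21, RBM28 had -0.74 ± 0.40, URB2 -0.37 ± 0.29, SLX9 -0.07 ± 0.41 and RPL5 -0.13 ± 0.27.

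MYC, a transcription factor known to switch on many genes of ribosome building, fell in the same comparison, with a log2 fold change of -2.91 ± 0.44 (SE, adjusted p = 0.0246). MYC had 8.0, 9.2 and 4.29 CPM in VHD livers post-induction, against 92.8, 21.7 and 64.1 CPM at baseline. In LD livers MYC had 14.8, 5.04 and 13.6 CPM post-induction, against 33.7, 123 and 71.3 CPM at baseline. All 6 post-induction values lay below all 6 baseline values, and its part in the levels of the 54 genes was not tested. The call of MYC, like that of RPF2, was lost in the fits where 0 of all genes passed. Other fits also called few genes, such as 4 of all genes with the animal term and 1 without LD baseline 3. Whether MYC or RPF2 was among them is not given here, so their calls are not shown to be firmer than those of NIFK and GNL3.

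Many snoRNAs lie in introns of genes that serve ribosome building and are cut out of the host's spliced introns. Within the spans of 7 of the 54 genes, and on the same strand, the files list 19 short identifiers of at most 250 bases, 17 of them with a snoRNA name. Of these, 16 were tested, in 5 hosts (GNL3, NOP58, NOP56, NCL and DKC1). In the mean response 15 of the 16 had a log2 fold change above 0 and 1 below, where 42.6% of all genes tested were below 0. Their median was 0.22, beside 0.07 over all genes. The range ran from -0.20 for SNORD11 to 1.19 for the unnamed identifier from 89502090 to 89502170 inside GNL3. These had few counts over all libraries, 266 and 92. All 16 values were above that of the host, as was the median of all genes, with hosts from -1.48 for GNL3 to -0.55 for DKC1. None passed the adjusted threshold in edgeR's test and none had an unadjusted p under 0.05. By animal the direction was mixed. SNORA56, SNORA75, SNORD11B, SNORD19B, SNORD56, SNORD69, SNORD70, SNORD70B, SNORD82 and SNORD110 were each lower post-induction in 3 animals and higher in the others. SNORD11 was lower in 4 animals. SNORA36A, SNORA51, SNORD20 and the unnamed identifier from 89502090 to 89502170 were lower in 2. The unnamed identifier from 89502089 to 89502162 was lower in 1.

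In NOP56, which had -1.03, SNORD110 had 421, 400 and 1043 CPM in VHD livers post-induction, against 557, 521 and 468 CPM at baseline. In LD livers SNORD110 had 607, 871 and 1146 CPM post-induction, against 711, 574 and 903 CPM at baseline. Its log2 fold change was 0.27 ± 0.29, and its change exceeded that of NOP56 in 6 of 6 animals, though SNORD110 itself was lower in 3 of 6. NOP56 was lower in 6 of 6 animals, so an RNA with no change would also exceed it in each. SNORD110 was the 1 of the 16 short RNAs that exceeded its host in 6 of 6 animals, and the other 15 did so in 4 or 5 of 6. The share of all genes that exceed the same hosts is not given here. SNORD82 in NCL, with 1633418 counts over all libraries against 20474 of NCL, had 0.17 ± 0.33, beside -0.59 for NCL. SNORD70 and SNORD70B in NOP58 had 0.21 ± 0.33 and 0.27 ± 0.35, beside -1.44 for NOP58; these near copies, like SNORD11 and SNORD11B, may share reads. The SEs of the 16 ran from 0.29 to 0.99.

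The short RNAs inside GNL3 stood apart in VHD post-induction 2 and VHD baseline 3. SNORD69 had 30.0 and 61.8 CPM there, against 515 to 2380 CPM in the other 10 libraries. SNORD19B had 0.657 and 2.07 CPM, against 23.7 to 72.1 CPM, and the unnamed identifier from 89502089 to 89502162 had 0.767 and 1.44 CPM, against 11.9 to 47.3 CPM. GNL3 itself had 26.6 and 40.6 CPM in these libraries, within the range of the others, and SNORD70 inside NOP58 had 253 and 347 CPM, against 211 to 789 CPM in the other 10. SNORD20 in NCL was also lowest in both, at 27.5 and 40.4 CPM, against 58.1 to 171 CPM. Without both libraries the median of the 16 was 0.34, again with 15 above 0 and all 16 above their host. The unnamed identifiers inside GNL3 overlap each other on the same strand, so the split of reads between them is uncertain.

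**Figure D5:**
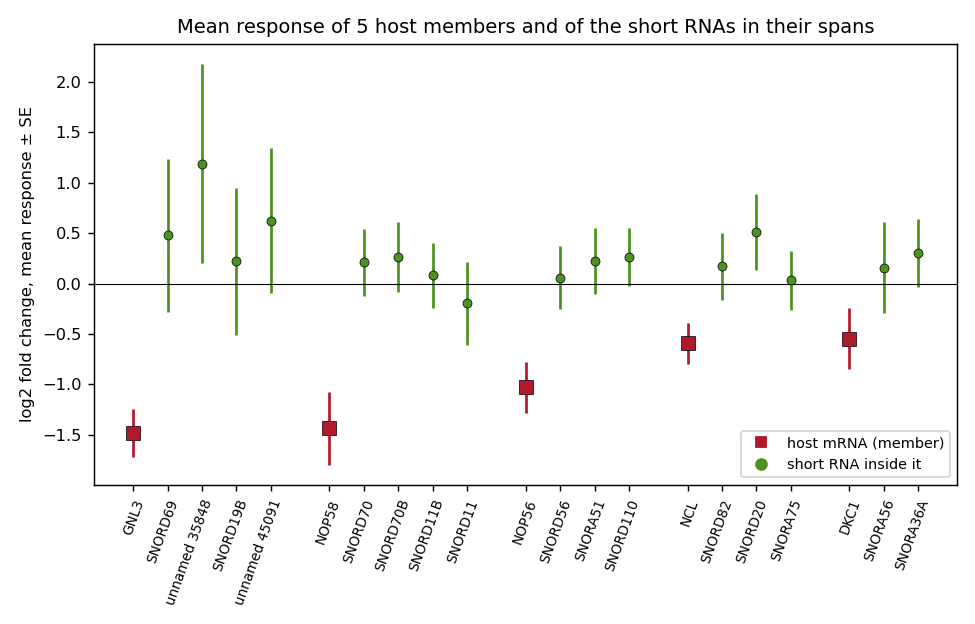
Log2 fold change of the mean response (y axis, post-induction over baseline, bars of 1 SE) for 5 host genes (squares) and the 16 short RNAs inside their spans (circles), grouped by host on the x axis. Every circle lies above the square of its host, and 15 of 16 lie above 0.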

How the data were processed

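Liver mRNA of 12 Combo-Seq libraries was analysed. Per the submitters' processing notes, Partek, Bowtie and BWA were used with the build Mmul_8.0.1; versions, roles, the annotation release and the use of strand were not given in the sources used here. The deposited table holds expected counts per transcript (whole numbers in 40.1% of cells), which were summed per gene identifier and rounded. Symbols came from the reference name table, and a start position may differ by 1 base.

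Genes were filtered with filterByExpr by group. The quasi-likelihood test of edgeR 4.0.16 (R 4.3.3) was run on TMM-scaled libraries, with 1 mean for each of the 4 groups, robust dispersion, and Benjamini-Hochberg adjustment over 18373 genes in each of 6 comparisons. The fit was also run on simulated counts. These were drawn independently for each library, without pairs of animals or libraries that stand apart, so they cannot bear on either. The SE is the size of the log2 fold change divided by the square root of F. CPM uses library totals scaled by TMM, and log2 changes per animal use a prior count of 2. Lengths in this build were not used here, so levels or counts set side by side between genes are not corrected for length.

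Libraries of 1 animal were treated as independent. Libraries were paired by the animal numbers in the titles, which the data do not show to be right for every library; deviations from the group means correlated at 0.406, -0.354 and 0.104 in VHD1 to VHD3 and at 0.0748, -0.0162 and 0.351 in LD1 to LD3. The term for the animal, an alternative, and all changes per animal rest on these numbers. In the 2 class comparisons that alternative used the replicate number in place of the animal. The others were RLE and upper-quartile factors, no filter, a filter of 1 CPM in 3 libraries, DESeq2 1.42.0, limma 3.58.1 voom with a random effect for the animal, leaving out each library, leaving out 2 libraries, 2 surrogate variables (sva 3.50.0) and transcripts. A fit without identifiers of at most 250 bases was chosen after seeing the data.

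The members and lists were chosen with earlier results of these data known. Values in every library are given for members past the threshold, those with the 5 smallest p in the responses and their difference and the 3 smallest in each class comparison, and a fixed panel by role; of each pathway list the 2 genes with the smallest p in the mean response are named. Promoter and protein sequences were not used here.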

Additional observations from a re-analysis of the deposited data

How the results depend on the processing

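Over 23 alternatives the median log2 fold change of the 54 genes in the mean response stayed between -0.65 and -0.46, and 44 to 49 of them were below 0. NIFK was past the threshold in 15 of the 23 and GNL3 in 13. The number called in the mean response, 2 in the reported fit, was 9 with DESeq2, 5 with 2 surrogate variables (GNL3, NIFK, NOL6, NOP2 and UTP25), 0 with transcripts in place of genes (adjusted p = 0.103 for both) and 0 to 3 without 1 library, with 0 in 6 of 12 such fits. All genes called in that comparison numbered 49 in the reported fit, 284 with DESeq2, 134 with the surrogate variables, 4 with the animal term and 0 with transcripts. DESeq2 called 2 of the 54 in VHD animals and 2 in LD animals, against 0 and 0 in the reported fit. The cause of these differences was not tested, except that fits without a library have fewer samples.

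With the replicate block (a term for the animal, with libraries paired by the numbers in the titles) 0 of the 54 were called in the mean response, with adjusted p of 0.0893 for NIFK and 0.0989 for GNL3, a median of -0.52 and 49 of 54 below 0. The block changed no other call among the 54 genes.

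The median in VHD animals, -0.46 as reported, was -0.64 without VHD post-induction 2 and VHD baseline 3, -0.38 with transcripts and -0.60 to -0.44 without 1 library. Signs turned for 4 named values. The difference of responses of GNL3L ran from -1.46 to 0.0059 without 1 library. RRP1B, VHD minus LD post-induction, ran from -0.39 to 1.86 without 1 library and was -0.39 without both libraries. In the mean response UTP4 was 0.077 for its main transcript, and RRP12 was 0.050 with upper-quartile factors, 0.00099 with the filter of 1 CPM and -0.18 to 0.099 without 1 library. Upper-quartile factors moved the median of all genes to 0.13 in the mean response and 0.18 in LD animals.

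Total counts of the 54 genes over the 12 libraries ran from 167 to 20474, so counting error is largest for the low ones, and 3 animals per class limit every comparison.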
